A study of Lactuca sativa with 6 samples.

Results

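Proteases and protease inhibitors of lettuce leaves were compared between WT plants and plants overexpressing *LsAP2* (*LsAP2*-OE). Members were chosen by words in the Swiss-Prot description of each gene in the deposited table. A gene was taken where its description contained protease, proteinase, peptidase, subtilisin or metacaspase, and was left out where it contained IN GUARD CELL or ubiquitin. This gave 38 of the 2579 genes of the table. The words choose names, not functions, so the set holds genes described as peptidases, as inhibitors of peptidases and as ATPase subunits of the proteasome. The WT group was the lettuce cultivar S39. *LsAP2*-OE plants carried, in that cultivar, the coding sequence of *LsAP2*, a transcriptional repressor, under the cauliflower mosaic virus 35S promoter, which drives expression in most tissues. Each group had 3 RNA-seq libraries from young leaves of plants aged 1 month, given by the study as biological replicates. Which transgenic line was sequenced, and whether more than 1 line was used, could not be read from the sources used here, so line and transgene effects cannot be told apart.

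Peptidases cut proteins and are grouped by the residue or metal that drives the cut: serine, cysteine, aspartic acid or a metal ion, usually zinc. In leaves they replace photodamaged proteins in chloroplasts, mature and recycle proteins in the vacuole, process secreted proteins in the cell wall, and take part in programmed cell death. Protein inhibitors of the Kunitz type block peptidases of insects, microbes or the plant itself. The 26S proteasome degrades proteins tagged with ubiquitin, and its regulatory ATPases unfold the substrate without cutting it.

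The deposited values are normalized expression values, 1 per gene and library. How they were normalized is not stated, so it is not known whether they are per transcript length, and the sizes of values are therefore compared between libraries and not between genes. Depth per library is unknown. A gene described as APETALA 2 (Lsat_1_v5_gn_3_89681), taken here as *LsAP2*, had values of 25.3, 27.9 and 30.5 in WT. In *LsAP2*-OE its values were 214, 209 and 224, in the direction of the labels. It had the largest rise of the genes so described, so it is a weak check of the labels. Of the other 3 genes described as APETALA 2, 1 was higher and 2 were lower. Markers of green leaf were present in every library, with a summed value of 8689 to 9770 over 14 genes in WT and of 18000 to 20858 in *LsAP2*-OE. Of the 14, 6 were higher and 8 lower. The sums were set largely by Rubisco small chain genes, the highest of which (Lsat_1_v5_gn_2_79481) rose from 4013 to 8927 in means. The table lists only genes that the authors had already called at a fold change of at least 2 between these same libraries. Members that did not change cannot appear in it, and neither the count of members nor the p-value of a member is independent evidence of a difference. P-values are from limma on log2(value + 0.1), adjusted over all 2579 genes, and genes were called at adjusted p below 0.01. Log2 fold changes are on that scale, which understates the change of low values. In bulk leaves, fewer cells of a type and less RNA per cell cannot be told apart.

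Most protease genes of the table were higher in *LsAP2*-OE leaves. Of the 38 members, 32 were higher (84.2%) and 6 lower (15.8%), and all passed the threshold. Of all 2579 genes, 59.1% were higher and 39.6% lower, and 98.7% passed in either direction, so that a member passing is no result in itself. In the same libraries all 7 markers of dividing cells (ribonucleotide reductase, PCNA and a B-type cyclin-dependent kinase) were lower, with a summed value of 1130 to 1174 in WT and 452 to 468 in *LsAP2*-OE, and of 4 phloem markers 3 were higher and 1 lower. Their part in the members' values was not tested. The members had a median log2 fold change of 1.24, and all genes of the table a median of 1.03. The 3 WT and 3 *LsAP2*-OE libraries did not overlap in any of the 38 members, as in 99.4% of all genes of the table. For any gene, the exact permutation test of 3 libraries against 3 has 0.1 as its smallest p. The 32 higher members had log2 fold changes of 0.86 to 4.66, and the 6 lower members of −2.18 to −1.10. In ratios of group means, 21 members were 2 to 4 times higher, 8 were 4 times higher or more, and 3 called higher had a ratio below 2 (*FTSH2*, *SCPL34* and an *SCPL51*), so that 29 were higher where a ratio of at least 2 was also required. With 1 in place of 0.1 as the pseudocount, 10 members of low value had log2 fold changes smaller by more than 1.5 times, and all 38 were called in the same direction.

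The classes differed in how their members divided. All 4 metallopeptidases, both cysteine peptidases and all 5 genes described as 26S subunits were higher, as were 16 of 18 serine peptidases. The metallopeptidases include the gene described as *FTSH10*, whose closest protein in the NR database is a chaperone and not a protease. The aspartic peptidases divided into 4 higher and 3 lower, and the inhibitors into 1 and 1. The aspartic division, 57.1% and 42.9%, was near the 59.1% higher and 39.6% lower of all genes of the table. These counts are small and were not tested against each other.

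**Figure D1:**
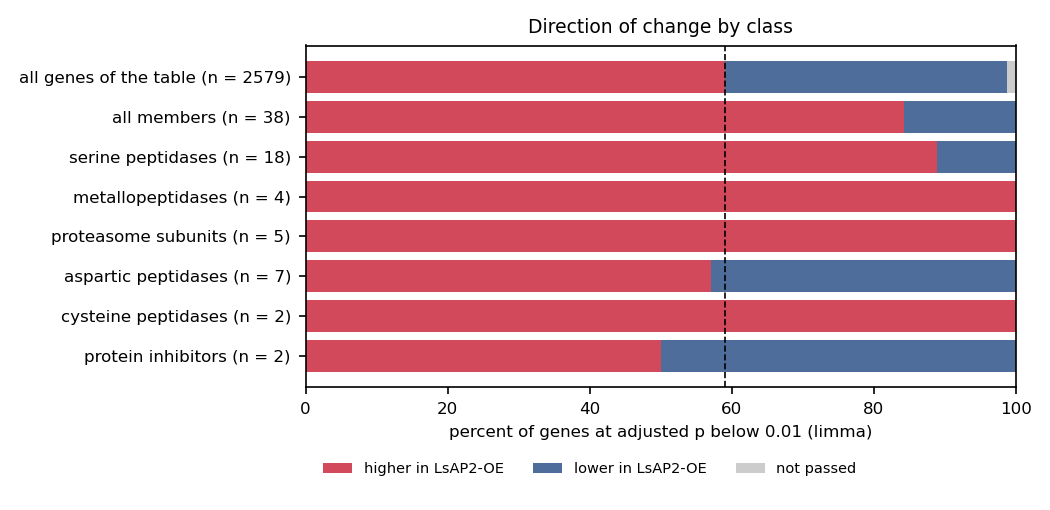
Percent of genes higher (red), lower (blue) or not passed (grey) in *LsAP2*-OE against WT at an adjusted p below 0.01 from limma, for all genes of the table, all members and each class, with the number of genes beside each name. The dashed line marks the 59.1% of all table genes that were higher; the aspartic peptidases (57.1%) and the inhibitors (50%) lie left of it, the other classes right of it.

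**Figure D2:**
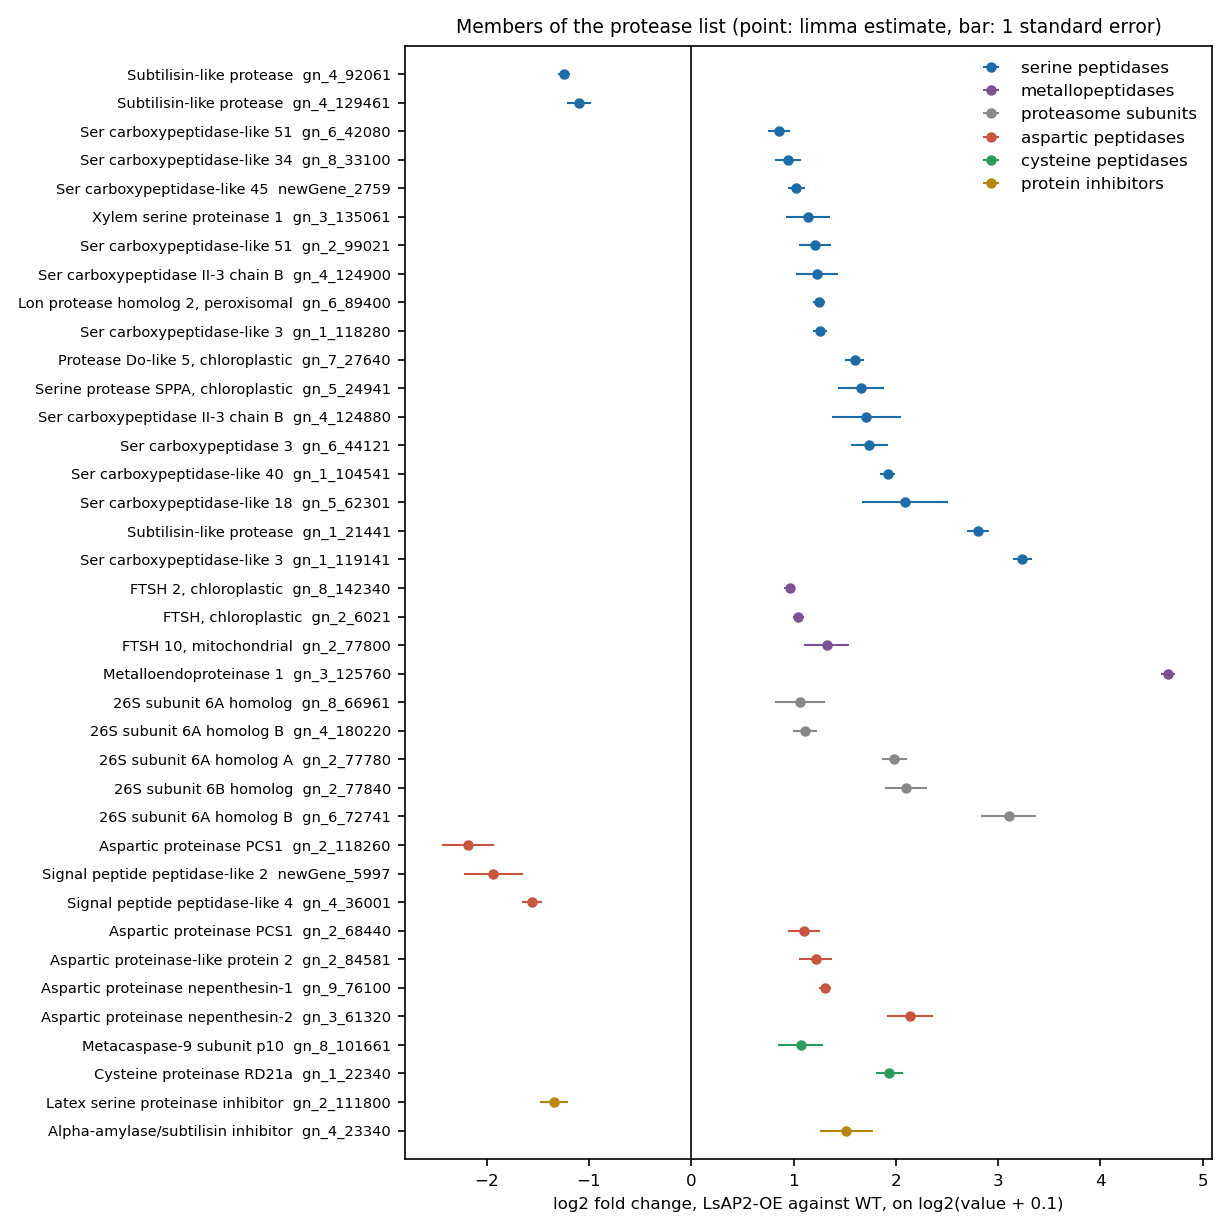
Log2 fold change of each of the 38 members on the scale log2(value + 0.1), grouped and coloured by class, with bars of 1 standard error from limma; gene IDs are shortened to their last part. The 6 points left of 0 are 2 subtilisin-like proteases, 3 aspartic peptidases and 1 inhibitor, and Metalloendoproteinase 1 lies farthest right at 4.66.

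The serine carboxypeptidase family was the largest group, with 11 genes, and all 11 rose, where 59.1% of all genes of the table were higher. Enzymes of this family remove residues from the carboxyl end of proteins in the vacuole or outside the cell, and some of those of *Arabidopsis* act instead as acyltransferases in the synthesis of phenolic esters, so the description alone does not give the reaction. Their log2 fold changes ran from 0.86 to 3.24. The largest rise was in a gene described as *SERINE CARBOXYPEPTIDASE-LIKE 3* (*SCPL3*, Lsat_1_v5_gn_1_119141), with values of 4.52, 3.86 and 4.38 in WT and 40.4, 38.9 and 43.3 in *LsAP2*-OE. Every *LsAP2*-OE library of this gene was far above every WT library, and the groups were 9.61-fold apart in means, a log2 fold change of 3.24 ± 0.0898 (SE, limma adjusted p = 2.77e-08). A second gene of the same description (Lsat_1_v5_gn_1_118280) rose less, from 20.0, 21.5 and 22.4 to 53.8, 50.2 and 49.3, or 2.40-fold. For both, the closest protein in the NR database was an *SCPL18*, a different member of the family.

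*SCPL40* (Lsat_1_v5_gn_1_104541) showed a rise with little spread, from 14.5, 16.3 and 14.3 in WT to 56.4, 56.7 and 57.7 in *LsAP2*-OE, a log2 fold change of 1.92 ± 0.0708 (SE, limma adjusted p = 1.02e-07). *SCPL45* (Lactuca_sativa_newGene_2759) rose from 13.5 ± 0.992 to 27.5 ± 1.62 (SD, n = 3), and *SCPL34* (Lsat_1_v5_gn_8_33100) from 8.66 ± 1.18 to 16.7 ± 1.73, the latter 1.93-fold. Of the 2 genes described as *SCPL51*, one (Lsat_1_v5_gn_6_42080) had the smallest ratio of means among the members that rose, 1.83, from 7.28 ± 0.458 to 13.3 ± 1.38, and the other (Lsat_1_v5_gn_2_99021) rose from 2.02 ± 0.238 to 4.82 ± 0.571 (SD, n = 3). The remaining 4 genes of the family had values below 2 in every WT library. Serine carboxypeptidase 3 (Lsat_1_v5_gn_6_44121) rose from 1.14 ± 0.0751 to 4.08 ± 0.789. *SCPL18* (Lsat_1_v5_gn_5_62301) had values of 0.0918, 0.348 and 0.491 in WT and 1.91, 1.08 and 1.56 in *LsAP2*-OE, the widest standard error of the log2 fold change among the members (2.09 ± 0.42, SE, limma adjusted p = 0.0012). A pair of neighbouring IDs shares the description serine carboxypeptidase II-3 and may share reads. The first (Lsat_1_v5_gn_4_124880) had values of 0.609, 1.82 and 1.31 in WT and 4.52, 3.88 and 3.58 in *LsAP2*-OE. The second (Lsat_1_v5_gn_4_124900) rose from 0.704 ± 0.163 to 1.76 ± 0.0861 (SD, n = 3).

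The subtilisin-like proteases, secreted serine peptidases that process proteins of the cell wall, went both ways. Of these, 3 genes carry the same closest Swiss-Prot protein, the product of At5g67360, which in *Arabidopsis* acts in the release of seed coat mucilage. The first (Lsat_1_v5_gn_4_92061) fell from 113, 121 and 124 in WT to 50.8, 49.4 and 50.9 in *LsAP2*-OE, a log2 fold change of −1.24 ± 0.0596 (SE, limma adjusted p = 3.20e-07). Its WT libraries were all more than 2 times its *LsAP2*-OE libraries. The second (Lsat_1_v5_gn_4_129461) fell from 6.97, 6.76 and 6.13 to 3.18, 2.82 and 3.09, a log2 fold change of −1.10. The third (Lsat_1_v5_gn_1_21441) went the other way, from 1.90, 1.75 and 1.80 in WT to 14.1, 12.5 and 13.3 in *LsAP2*-OE, a 7.31-fold rise (log2 fold change 2.80 ± 0.109, SE, limma adjusted p = 1.29e-07). These genes share a closest protein and may share reads where their sequences are alike. The fourth of the group, *XYLEM SERINE PROTEINASE 1* (*XSP1*, Lsat_1_v5_gn_3_135061), which is named for its expression in xylem of *Arabidopsis*, rose from 0.546, 0.448 and 0.657 to 1.12, 1.32 and 1.55, a log2 fold change of 1.14 (limma adjusted p = 8.91e-04). The 14 xylem markers of the table are 13 laccases and a cellulose synthase of the secondary wall. All 14 were higher as well, beside 59.1% of all genes of the table. Their summed value was 26.8 to 32.2 in WT and 68.5 to 71.5 in *LsAP2*-OE. Their part in the value of *XSP1* was not tested.

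**Figure D3:**
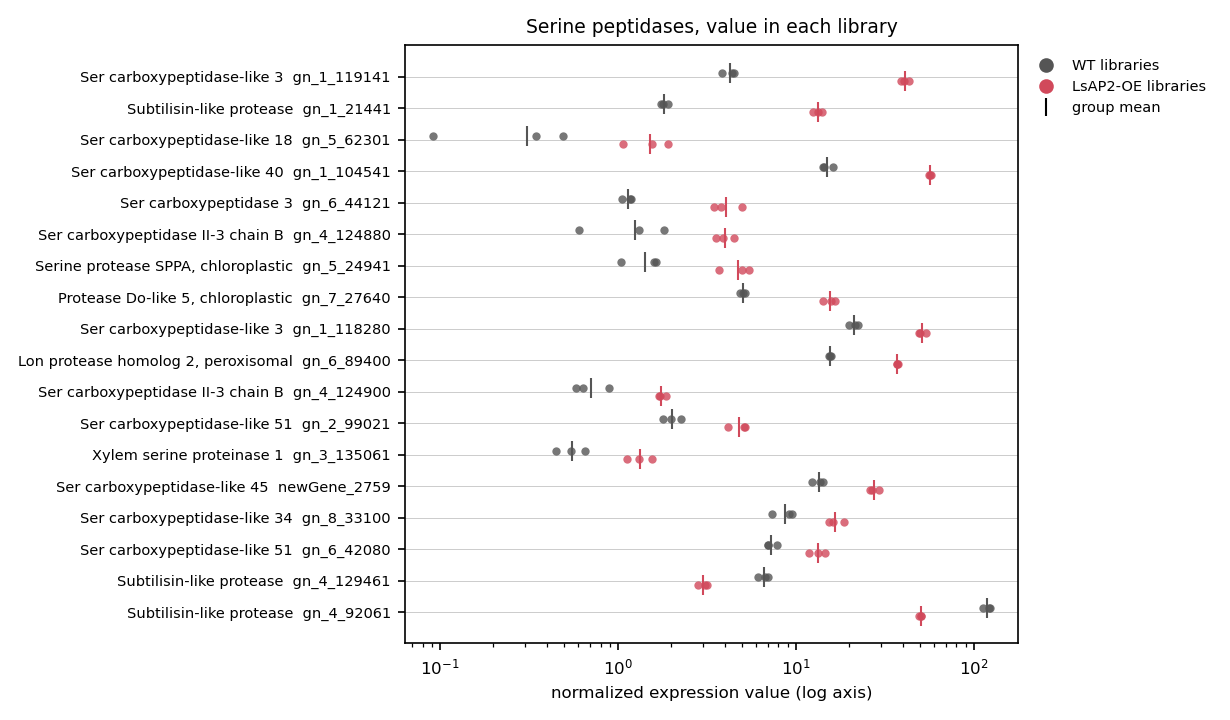
Normalized expression value (log axis) of the 18 serine peptidases in each WT (grey) and *LsAP2*-OE (red) library, ordered by log2 fold change, with a vertical tick at each group mean. The groups are separate in each row; red lies right of grey in 16 rows and left of it in the lowest 2 rows, both subtilisin-like proteases.

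Genes described as proteases of an organelle were all higher, 6 of 6, with log2 fold changes of 0.96 to 1.66. Of all genes of the table, 59.1% were higher. The 6 include the gene described as mitochondrial *FTSH10*, whose closest NR protein is not a protease. FtsH proteases are membrane-bound ATPases with a zinc site that degrade photodamaged photosystem II proteins in the thylakoid, and *FTSH2* is a main subunit in *Arabidopsis*. *FTSH2* (Lsat_1_v5_gn_8_142340) had values of 102, 97.3 and 101 in WT and 192, 199 and 194 in *LsAP2*-OE, a ratio of 1.95 with little spread (log2 fold change 0.96 ± 0.0536, SE, limma adjusted p = 6.45e-07). A second chloroplast gene described as *FTSH* (Lsat_1_v5_gn_2_6021) moved by nearly the same ratio, 2.07, from 90.6, 95.8 and 92.9 to 195, 186 and 196. Protease Do-like 5 (Lsat_1_v5_gn_7_27640), which works in the thylakoid lumen in the repair of photosystem II in *Arabidopsis*, rose from 5.08, 5.21 and 4.85 to 16.6, 15.8 and 14.2, or 3.07-fold. The serine protease SPPA (Lsat_1_v5_gn_5_24941), a light-induced thylakoid protease in *Arabidopsis*, rose from 1.43 ± 0.330 to 4.71 ± 0.909 (SD, n = 3). The members of the chloroplast thus rose by 1.95 to 3.30 times in means. In the same libraries the green leaf markers did not move one way. All 6 Rubisco small chain genes of the table were higher and all 8 chlorophyll a-b binding proteins lower, and their part in the values of the chloroplast proteases was not tested.

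Outside the chloroplast, the peroxisomal Lon protease homolog 2 (Lsat_1_v5_gn_6_89400), which sustains the import of matrix proteins into peroxisomes in *Arabidopsis*, had values of 15.8, 15.4 and 15.5 in WT and 37.1, 37.4 and 37.1 in *LsAP2*-OE. Replicates of this gene agreed to within a few percent, with coefficients of variation of 1.30% and 0.488%, and the log2 fold change was 1.25 ± 0.059 (SE, limma adjusted p = 3.08e-07). The gene described as mitochondrial *FTSH10* (Lsat_1_v5_gn_2_77800) rose from 0.688, 1.14 and 0.892 to 2.30, 2.71 and 2.16. Its closest NR protein is instead a mitochondrial chaperone BCS1, which is an ATPase and not a protease.

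Metalloendoproteinase 1 (Lsat_1_v5_gn_3_125760) had the largest log2 fold change of the 38 members with a pseudocount of 0.1. With 0.01, the 26S gene that has a WT library at 0 was above it, at 5.35 against 4.69. It is named for a matrix metalloproteinase of soybean leaves, a secreted zinc enzyme. Its values were 4.73, 4.62 and 4.98 in WT and 117, 130 and 123 in *LsAP2*-OE. The means of 4.78 ± 0.184 and 123 ± 6.64 (SD, n = 3) were 25.8-fold apart, a log2 fold change of 4.66 ± 0.0699 (SE, limma adjusted p = 1.71e-09). The spread within either group was small beside the distance between them.

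The aspartic peptidases were the class with the most members that fell, 3 of 7. That share, 42.9%, was near the 39.6% lower among all genes of the table. The 2 signal peptide peptidase-like genes, intramembrane aspartic proteases that cut within membrane-spanning segments, were both lower. *SPPL4* (Lsat_1_v5_gn_4_36001) fell from 16.9, 17.6 and 18.5 to 5.90, 5.37 and 6.57, a log2 fold change of −1.56 ± 0.0986 (SE, limma adjusted p = 1.20e-06). *SPPL2* (Lactuca_sativa_newGene_5997) fell from 1.39, 1.15 and 1.31 to 0.142, 0.285 and 0.407. Its closest NR protein is instead a lettuce signal peptide peptidase-like 3. The 2 genes described as *PROMOTION OF CELL SURVIVAL 1* (*PCS1*), an aspartic proteinase needed for cell survival in reproductive tissue and embryos of *Arabidopsis*, moved in opposite directions. The first (Lsat_1_v5_gn_2_118260) had values of 1.54, 2.04 and 1.87 in WT and 0.337, 0.210 and 0.449 in *LsAP2*-OE, with the lowest log2 fold change of all members at a pseudocount of 0.1 (−2.18 ± 0.256, SE, limma adjusted p = 4.64e-05). With a pseudocount of 1 it was −1.08, and *SPPL4* was lower at −1.43. The second (Lsat_1_v5_gn_2_68440) rose from 1.45, 1.64 and 1.52 to 3.08, 3.84 and 3.32. Its closest NR protein has no name, so the shared description may not mean a shared function.

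The nepenthesins, named for aspartic proteinases of the digestive fluid of pitcher plants, were both higher. Nepenthesin-1 (Lsat_1_v5_gn_9_76100) rose from 80.9, 87.9 and 84.7 to 205, 213 and 211, a log2 fold change of 1.31 ± 0.057 (SE, limma adjusted p = 2.21e-07). Nepenthesin-2 (Lsat_1_v5_gn_3_61320) had values near the bottom of the scale in WT, at 0.0620, 0.0572 and 0.119, and of 0.804, 0.610 and 0.641 in *LsAP2*-OE. Its log2 fold change was 2.14 with a pseudocount of 0.1 and 0.64 with a pseudocount of 1, so its size depends on that choice. Aspartic proteinase-like protein 2 (Lsat_1_v5_gn_2_84581) rose 2.41-fold, from 1.35 ± 0.172 to 3.26 ± 0.0711 (SD, n = 3).

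Both cysteine peptidases rose, where 59.1% of all genes of the table were higher. RD21a (Lsat_1_v5_gn_1_22340) is a papain-like protease that responds to dehydration in *Arabidopsis*. Its values were 14.5, 17.8 and 18.0 in WT and 57.1, 77.8 and 59.2 in *LsAP2*-OE, with *LsAP2*-OE replicate 2 above the other two. The log2 fold change was 1.94 ± 0.134 (SE, limma adjusted p = 2.01e-06). Metacaspase-9 (Lsat_1_v5_gn_8_101661), which in *Arabidopsis* acts in the clearance of dying xylem cells, rose from 0.977, 1.43 and 1.32 to 2.14, 3.10 and 2.91, a log2 fold change of 1.07 ± 0.217 (SE, limma adjusted p = 0.00129). The xylem markers named above and all 5 markers of senescing leaves were also higher, beside 59.1% of all genes of the table. The latter, 3 *YLS9* genes, a pheophytinase and a senescence-associated carboxylesterase, had a summed value of 88.1 to 106 in WT and 204 to 221 in *LsAP2*-OE. That sum was set largely by a *YLS9* gene (Lsat_1_v5_gn_2_56001) that rose from 85.5 to 185 in means. The part of the xylem and senescing leaf markers in the values of the cysteine peptidases was not tested.

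All 5 genes described as regulatory subunits of the 26S proteasome were higher, where 59.1% of all genes of the table were higher. Their log2 fold changes were 1.06 to 3.10, but the NR database describes them differently. Swiss-Prot places them closest to subunits 6A or 6B, ATPases of the ring that unfolds substrates. For 2 of the 5 the closest NR protein is a probable mitochondrial chaperone BCS1, an ATPase of the same superfamily, and for the other 3 it has no name. Subunit 6A homolog A (Lsat_1_v5_gn_2_77780), closest to BCS1, rose from 3.20, 3.76 and 3.89 to 16.0, 13.0 and 14.8, a log2 fold change of 1.98 ± 0.12 (SE, limma adjusted p = 9.91e-07). Subunit 6B homolog (Lsat_1_v5_gn_2_77840), also closest to BCS1, rose from 0.496, 0.330 and 0.401 to 1.91, 2.24 and 2.03. Both have IDs near that of the gene described as *FTSH10*, so that 3 genes of this neighbourhood carry a BCS1 description in NR, and all 3 were higher. As similar copies they may share reads.

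Of the other 26S descriptions, a subunit 6A homolog B (Lsat_1_v5_gn_4_180220) rose from 4.50 ± 0.518 to 9.83 ± 0.550 (SD, n = 3). A second of that name (Lsat_1_v5_gn_6_72741) was listed at 0 in WT replicate 1, with 0.00575 and 0.0720 in the other WT libraries and 0.774, 1.15 and 0.956 in *LsAP2*-OE. No ratio is given for it, and its log2 fold change was 3.10 with a pseudocount of 0.1, 0.93 with 1 and 5.35 with 0.01. Subunit 6A homolog (Lsat_1_v5_gn_8_66961) had values of 0.854, 1.64 and 1.39 in WT and 2.90, 2.87 and 2.43 in *LsAP2*-OE. Of the 12 refits of single members (other pseudocounts, the filter at a mean value of 1, no trend, a replicate block, centring, each library left out), it was the only member that lost its call. Its limma adjusted p was 0.0025, and 0.0109 without *LsAP2*-OE replicate 1 and 0.0105 without *LsAP2*-OE replicate 2 (over all alternatives 0.00115 to 0.0109).

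The 2 inhibitors moved in opposite directions. Both are closest in NR to miraculin, a protein of the Kunitz inhibitor family. The latex serine proteinase inhibitor (Lsat_1_v5_gn_2_111800), named for a protein of papaya latex, fell from 22.9, 18.2 and 18.4 in WT to 6.41, 8.53 and 8.34 in *LsAP2*-OE, a log2 fold change of −1.35 ± 0.138 (SE, limma adjusted p = 1.96e-05). The alpha-amylase/subtilisin inhibitor (Lsat_1_v5_gn_4_23340), a type of bifunctional inhibitor first known from cereal grain, rose from 0.581, 0.998 and 0.605 to 1.76, 2.73 and 2.23, a log2 fold change of 1.51 ± 0.259 (SE, limma adjusted p = 4.62e-04). A list of 13 genes was taken as markers of latex and of laticifers, the milk-bearing cells of lettuce. It holds genes described as MLP-like proteins, polyphenol oxidases and germacrene A synthases or oxidase. MLP stands for major latex protein, while the other descriptions name neither latex nor laticifers. That these genes mark latex or laticifers of lettuce was assumed and was not tested. Within the list, 7 genes were higher and 6 lower. Their summed value was 775 to 875 in WT and 510 to 537 in *LsAP2*-OE, set largely by a polyphenol oxidase (Lsat_1_v5_gn_9_102320) that fell from 760 to 329 in means. All 4 genes of germacrene A synthesis or oxidation in that list were higher, so it gives no common direction beside which to set the inhibitor.

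**Figure D4:**
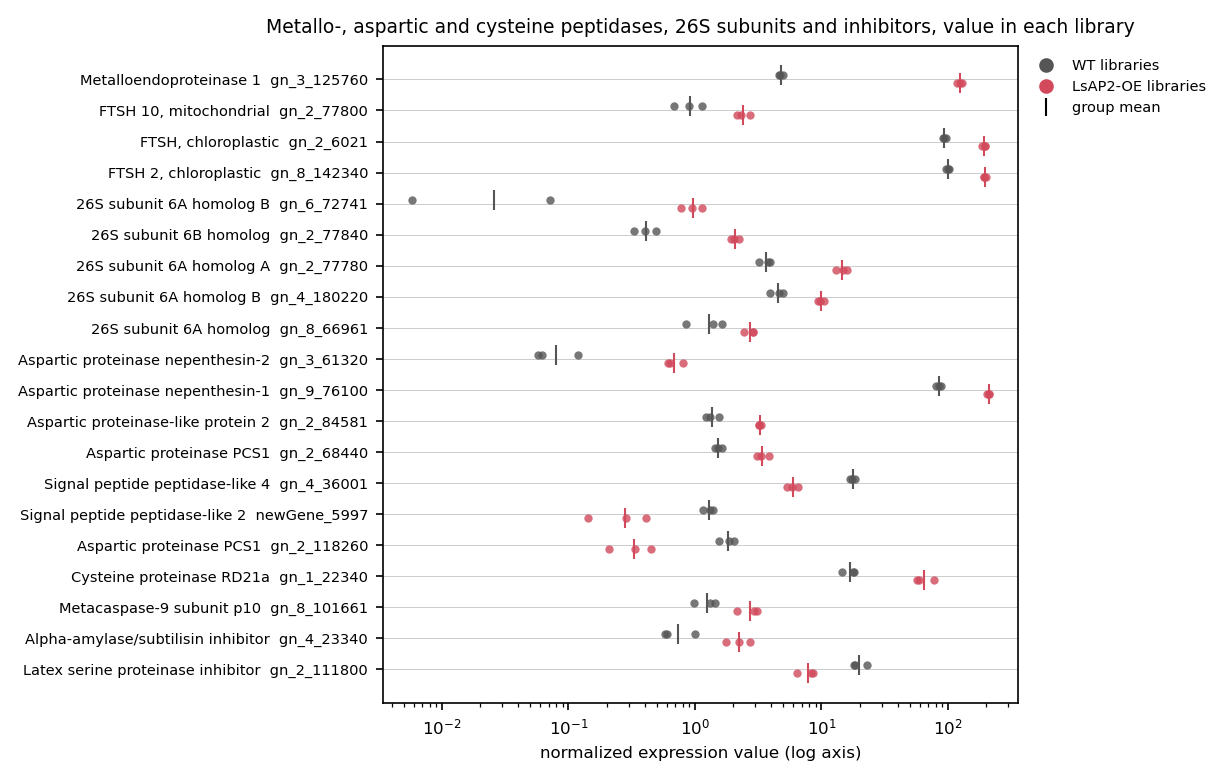
Normalized expression value (log axis) of the 20 members outside the serine class in each WT (grey) and *LsAP2*-OE (red) library, with a vertical tick at each group mean; WT replicate 1 of the 26S subunit 6A homolog B gn_6_72741 is listed at 0 and has no point. Red lies right of grey except for 3 aspartic peptidases and the latex serine proteinase inhibitor.

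Other genes of proteolysis, which the words of the rule do not reach or leave out, were read from a separate list of 9 genes. Of these, 8 were higher (88.9%) and 1 lower (11.1%), beside 59.1% and 39.6% of all genes of the table. A pair are cysteine peptidases of the vacuole. A gene described as oryzain alpha chain (Lsat_1_v5_gn_7_24101), a papain-like protease first named in rice, rose from 37.8, 44.8 and 43.7 to 89.9, 90.0 and 98.6, a log2 fold change of 1.14. Vacuolar-processing enzyme (Lsat_1_v5_gn_3_2341), which matures vacuolar proteins, rose from 0.930 ± 0.0825 to 2.80 ± 0.0701 (SD, n = 3). With RD21a and metacaspase-9, all 4 cysteine peptidases found under either set of words were higher, as were 59.1% of all genes of the table. A pair of genes described as miraculin also rose. The first (Lsat_1_v5_gn_2_112040), a Kunitz-like protease inhibitor by its NR description, went from 1.70, 0.978 and 0.905 to 5.94, 6.98 and 6.95, and the second (Lsat_1_v5_gn_3_3380) from 1.24 ± 0.794 to 4.60 ± 0.816 (SD, n = 3). Of the 4 Kunitz-type genes of either list, the latex serine proteinase inhibitor was therefore the only one that fell.

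The 3 genes left out for their guard cell name are aspartic proteases, and they too divided. *ASPG2* (Lsat_1_v5_gn_1_115840) fell from 726 ± 13.2 to 314 ± 0.841 (SD, n = 3), while the *ASPG1* genes rose, from 0.653 ± 0.160 to 22.2 ± 1.84 (Lsat_1_v5_gn_9_68220) and from 0.144 ± 0.0197 to 1.36 ± 0.248 (Lsat_1_v5_gn_9_69841). The last 2 of the 9 genes were called by a narrow margin. *DA1-RELATED 2* (Lsat_1_v5_gn_8_14601), whose relative DA1 is a peptidase that limits organ growth in *Arabidopsis*, had values of 0.404, 0.215 and 1.57 in WT and 1.74, 2.80 and 3.17 in *LsAP2*-OE, so that WT replicate 3 lay close to the lowest *LsAP2*-OE library. Its limma adjusted p was 0.00715 (over all alternatives 1.92e-04 to 0.0285), and the call was lost in 7 of 12 alternatives, among them the fits without WT replicate 1 (0.0242), WT replicate 2 (0.0208) and *LsAP2*-OE replicates 1, 2 and 3 (0.0107, 0.0245 and 0.0285). The chaperone ClpB1 (Lsat_1_v5_gn_8_21620), which carries a Clp name but unfolds proteins without cutting them, rose from 0.361 ± 0.0990 to 0.797 ± 0.220 (SD, n = 3). It had a limma adjusted p of 0.00596 (over all alternatives 0.00457 to 0.0238) and lost its call without WT replicates 1 or 2 (0.0212 and 0.0213) and without *LsAP2*-OE replicates 2 or 3 (0.0126 and 0.0238).

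Among the members, the replicate spread was similar in the 2 groups, with a median coefficient of variation of 10.8% in WT and 10.2% in *LsAP2*-OE. It ran from 0.488% for Lon protease homolog 2 in *LsAP2*-OE to 65.2% for *SCPL18* in WT, apart from 154% for the 26S gene with a library at 0. WT replicate 1 was the lowest WT library in 22 of the 38 members, WT replicate 2 in 11 and WT replicate 3 in 5. Without WT replicate 1, 32 members were higher and 6 lower, as with it. Of the 38 members, 28 were also found by the same words in the NR descriptions. The 10 that were not are the 5 genes described as 26S subunits, *FTSH10*, both inhibitors, Protease Do-like 5 and the *PCS1* gene that rose.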

How the data were processed

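Young leaves gave 6 RNA-seq libraries, 3 from WT and 3 from *LsAP2*-OE plants, sequenced on an Illumina NovaSeq. The authors aligned clean reads with HISAT2 and called genes with DESeq, and deposited a table of the called genes. The deposited signal of each gene and library is the authors' normalized expression value. The sources used here do not name the normalization, the quantification program, the genome build or the tool versions. The authors' FDR (an adjusted p-value) and log2 fold change columns were not used. Depth is unknown, so no precision from counting can be given. Without counts, DESeq could not be run again.

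Values were compared as log2(value + 0.1) by limma 3.58.1 (R 4.3.3) using the mean-variance trend, without a filter or a replicate block, and Benjamini-Hochberg adjustment over 2579 genes. Ratios of means have no pseudocount. Python 3.11.15 with numpy 2.4.6, pandas 2.3.3 and matplotlib 3.10.9 and R's data.table (1.17.8) handled values and plots. The fit was also run on simulated data in which a minority of genes were changed and replicate spreads were shuffled among genes. Nearly all genes of the real table were called, so that run does not give the error rate here. Class was assigned by words of the Swiss-Prot description. Members, lists and alternatives were chosen with earlier results of these data known. Every member could be named. All 6 values are given at least for the member with the largest mean, rise and fall of each class. Alternatives tried were pseudocounts of 1 and 0.01, a filter at a mean value of 1, no trend, a replicate block, group-wise centring, leaving out each library, an adjusted p below 0.05, an added minimum fold change of 2, and members by NR description. None of the gene IDs (0) matched the RefSeq gene table of lettuce, so no sequence or position is given.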

Additional observations from a re-analysis of the deposited data

How the results depend on the processing

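The counts of members kept their direction under all alternatives run. The number higher, 32, was 31 to 32 with each library left out in turn, 28 under the filter at a mean value of 1, 29 with an added minimum fold change of 2, and 26 with members by NR descriptions, a set of 32 genes. The number lower, 6, was 6 throughout, other than 5 under that filter. In 451 fits of single members under 12 alternatives, 2 lost their call, both of the 26S subunit 6A homolog Lsat_1_v5_gn_8_66961. None changed sign, but none could. The groups did not overlap in any of the 38 members, and these alternatives left the order of the groups as it was. The smaller counts under the filter and the NR words come from fewer genes being tested or matched. For the separate list of 9 proteolysis genes, 6 to 8 were higher with each library left out in turn, and 1 was lower throughout. With replicate number as a block, 32 members were higher and 6 lower. Correlations of same-numbered libraries' deviations from their group means were −0.0136, −0.0389 and 0.0136, so these libraries showed no shared deviation over the table. Whether same-numbered plants were grown or handled together is not known. The pseudocount set the size of the log2 fold change for low values. With 1 in place of 0.1 it changed by more than 1.5 times for 10 members, and with 0.01 for 1. The depth behind each value is unknown.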
